A study of Mus musculus with 4 samples.

Results

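Brain endothelial nuclei were picked out of single-nucleus RNA data from mouse brain by the genes they contained, and compared between Ago2 cKO and WT libraries. A nucleus was a member when at least 3 of 9 endothelial genes (Cldn5, Flt1, Pecam1, Tek, Kdr, Slco1a4, Mecom, Ptprb and Cdh5, called rule genes here) had a UMI and at most 1 of 6 mural genes did (Pdgfrb, Abcc9, Atp13a5, Vtn, Notch3 and Higd1b). A UMI is a molecular tag that counts 1 captured RNA molecule. Of 16076 nuclei kept, 279 were members: 39 and 54 in replicates 1 and 2 of the cKO and 102 and 84 in replicates 1 and 2 of the WT. Values of a group are given below as replicate 1 and then replicate 2.

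The cKO carried Slc17a6-Cre and Ago2 flox/flox, and the WT carried Slc17a6-Cre and Ago2 wt/wt, so both groups had the Cre. All mice were C57BL/6, untreated and 14 days old. Slc17a6 encodes the vesicular glutamate transporter Vglut2, so the deletion was aimed at excitatory neurons and not at the vessels themselves, and the study's title asks about the neurovascular unit. The extraction protocol names whole hemispheres while the design text speaks of cortical cells, so the region sampled is uncertain. Nuclei from snap-frozen tissue were run with 10x Genomics 3′ v3 chemistry, 2 libraries per genotype, and the labels do not say whether the libraries of a genotype came from separate animals. The p-values therefore measure the spread between libraries, which may be technical.

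Endothelial cells line the blood vessels. In the brain they form the blood-brain barrier: tight junctions seal the gaps between cells, carrier proteins bring in glucose and amino acids, and efflux pumps return drugs and lipids to the blood. Wnt signals reaching the receptor complex of these cells switch on the barrier programme during development, and VEGF, Notch and TGF-beta family signals shape sprouting and the split into arteries, capillaries and veins. In the second postnatal week of the mouse the vascular bed of the brain is still being remodelled.

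The 4 libraries held 3512 and 3472 barcodes in the cKO and 4066 and 6752 in the WT, with between 10845009 and 29317266 UMIs each. Members carried 108779 and 186530 UMIs in the cKO and 385358 and 438435 in the WT, with medians of 1984 and 2194 UMIs per nucleus in the cKO and 1924 and 3814.5 in the WT. Pairs of libraries shared 3 to 10 barcodes, and no barcode was a member in both of a pair. WT replicate 1 stood apart: 17.8% of its barcodes exceeded the mitochondrial maximum, against 5.64% and 6.13% in the cKO and 8.78% in WT replicate 2. Its remaining nuclei, those kept but not members, also held more RNA of endothelial genes, the source of which was not tested. Cldn5, the main claudin of the barrier, had a UMI in 1.92% and 4.24% of the remaining nuclei in the cKO, and in 15.1% and 8.07% in the WT.

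The label was described with genes the rule did not use, and rule genes are named as such. Ranked by the ratio of mean level in members over remaining nuclei, the leading genes were Zfp366 at 114-fold, Gm5127 at 110-fold and the adhesion receptor gene Adgrl4 at 98.1-fold. Rule genes followed, with Mecom at 77.9-fold, Flt1 at 70.4-fold and Slco1a4 at 66.2-fold. Egfl7, a secreted endothelial protein, stood at 52.6-fold, the clotting factor gene Vwf at 47.1-fold, the transcription factor gene Erg at 45.1-fold and the efflux pump gene Abcb1a at 43.8-fold. These ratios are a description, since members were chosen by expression. Apart from Gm5127, whose cell type is not shown here, the leading genes named are endothelial. Gm5127 had a UMI in 17.9% and 16.7% of cKO members and in 5.88% and 8.33% of WT members.

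How clearly a nucleus was endothelial depended on how many of the 9 rule genes it showed. Members with exactly 3 numbered 11 of 39 and 7 of 54 in the cKO and 61 of 102 and 30 of 84 in the WT, or 59.8% in WT replicate 1. A second list of 32 endothelial identity genes, none of them in the rule, was used to grade them. Among members with exactly 3 rule genes, 7 of 11 and 3 of 7 nuclei in the cKO and 23 of 61 and 16 of 30 in the WT showed at least 3 of those 32 genes. Every member with 5 or more rule genes did so, in all 4 libraries. Just outside the rule, nuclei with 2 rule genes numbered 51 and 88 in the cKO and 278 and 255 in the WT, and 9.80% and 7.95% of them in the cKO and 18.0% and 9.41% in the WT passed the same mark.

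**Figure D1:**
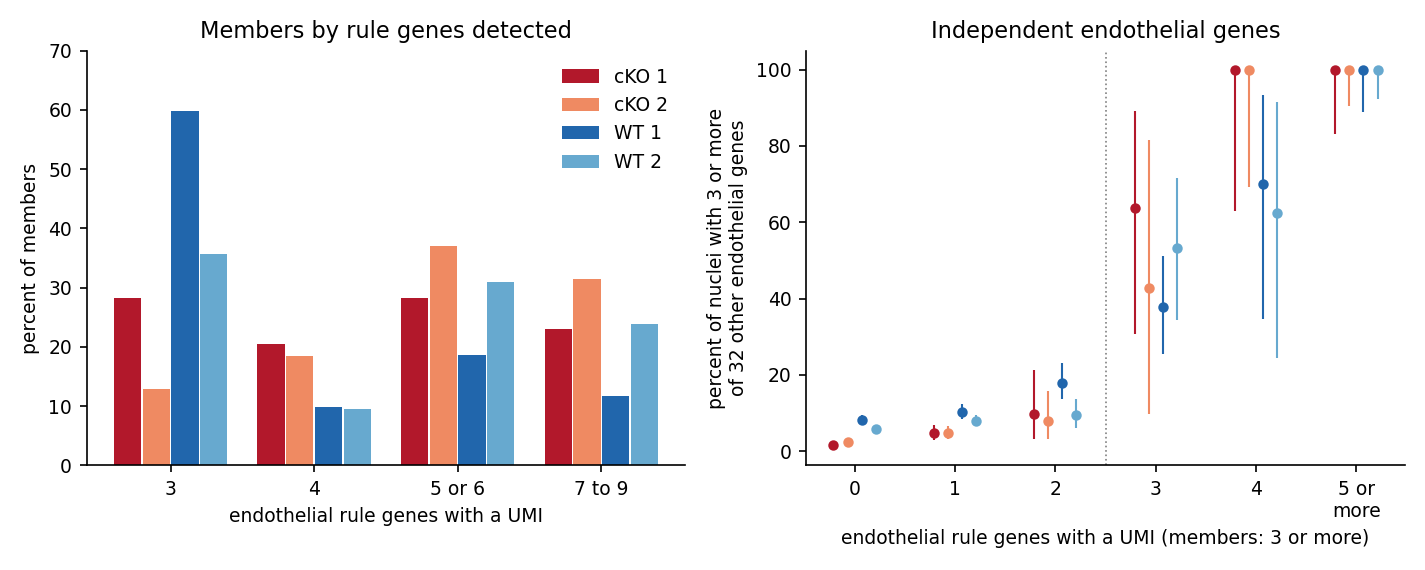
Left, the percent of members in each library by the number of endothelial rule genes with a UMI; right, the percent of nuclei with at least 3 of 32 other endothelial genes against the number of rule genes, with exact 95% binomial intervals that cover counting error only. WT replicate 1 had 59.8% of its members at exactly 3 rule genes, and members with 5 or more reached 100% in all libraries.

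The RNA of some other cells moved along with this, though not that of every type. Summed markers of neurons were lower in both cKO libraries, those of fibroblasts were higher, and those of oligodendrocytes and choroid plexus overlapped. Those of astrocytes stood at 1618 and 1748 CPM in the cKO and 3117 and 1774 CPM in the WT, so only WT replicate 1 was clearly higher. At least 3 markers of one other cell type were found in 15 of 39 and 16 of 54 members in the cKO, and in 50 of 102 and 42 of 84 in the WT. The 6 GABAergic neuron markers summed to 450.5 and 252 CPM (counts per gene scaled to the same total of UMIs in each library) in cKO members and to 602 and 684 CPM in WT members, and the 8 glutamatergic markers to 404 and 155 CPM against 553 and 484 CPM. The 32 identity genes went the other way, at 7382 and 7709 CPM in cKO members and 2922 and 4048 CPM in WT members. In both sets the groups did not overlap. In members with 5 or more rule genes the identity genes summed to 10257 and 9700.2 CPM in the cKO and 6929 and 8571 CPM in the WT, a narrower gap. The main results below are therefore given for all members and for the stricter sets with at least 4 rule genes (28 and 47 nuclei in the cKO, 41 and 54 in the WT) or at least 5 (20 and 37 in the cKO, 31 and 46 in the WT).

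The rule genes themselves are given without a test, since they chose the members. Flt1, a VEGF receptor, stood at 1875 and 2547 CPM in cKO members and 810 and 1104 CPM in WT members. Mecom, a transcription factor gene, stood at 2279.9 and 1941 CPM in the cKO and 662 and 823 CPM in the WT. Cldn5 differed from these, at 257 and 391 CPM in the cKO and 296 and 224 CPM in the WT. Pecam1, an adhesion molecule, had a UMI in 48.7% and 53.7% of cKO members and in 26.5% and 48.8% of WT members. Flt1 and Mecom were higher in both cKO libraries than in both WT libraries, while the groups overlapped for Cldn5.

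The share of endothelial nuclei did not separate the genotypes. They made up 1.18% and 1.66% of kept nuclei in the cKO and 3.05% and 1.36% in the WT, or 1.42% ± 0.339 and 2.21% ± 1.19 (SD, n = 2 each). The difference of -0.790 percentage points gave p = 0.667 by a two-sided exact permutation test, and 2 libraries against 2 cannot give a p below 0.333. The high value came from WT replicate 1, and without it the difference was 0.0530 points. Members with at least 5 rule genes made up 0.604% and 1.14% of nuclei in the cKO and 0.927% and 0.747% in the WT. Thinned to 1000 UMIs per nucleus, the share was 0.877% and 1.24% in the cKO and 1.14% and 0.731% in the WT. Snap-frozen nuclei are not sampled evenly across cell types, so these are shares of captured nuclei.

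Igfbp3 was the one gene called between the genotypes under each of the 3 rules for members. It encodes a secreted protein that binds insulin-like growth factors in the blood and tissue fluid, and lies on chromosome 11 (GRCm38, 11:7206086-7213923, minus strand). It had 26 and 26 UMIs in cKO members and 3 and 1 in WT members, or 239 and 139 CPM in the cKO and 7.78 and 2.28 CPM in the WT. The means were 189 ± 70.4 CPM in the cKO and 5.03 ± 3.89 CPM in the WT (SD, n = 2 each). Both cKO libraries lay far above both WT libraries. The fitted log2 change was 4.99 (SE 0.58, edgeR quasi-likelihood test, adjusted p = 0.0108 over 5597 genes). The pooled UMIs gave a ratio of 36.3, with an exact 95% interval of 13.3 to 138 for counting error only.

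The signal was spread over many nuclei. Igfbp3 had a UMI in 13 of 39 and 17 of 54 members in the cKO (33.3% and 31.5%) and in 3 of 102 and 1 of 84 in the WT (2.94% and 1.19%), and no nucleus held more than 6 UMIs. Thinned to 1000 UMIs per nucleus, which left out 4 and 6 shallower members in the cKO and 27 and 3 in the WT, the shares were 25.7% and 18.8% in the cKO and 2.67% and 1.23% in the WT. Among the remaining nuclei, 2.02% and 2.37% in the cKO and 1.48% and 1.04% in the WT had a UMI, at median depths of 2321 and 2428 UMIs in the cKO and 2473 and 3145 in the WT. Thinned in the same way, the remaining nuclei gave 0.822% and 0.785% in the cKO and 0.516% and 0.207% in the WT. The share in cKO members was above that of remaining nuclei in both libraries, and the intervals of the WT members, 0.611% to 8.36% and 0.0301% to 6.46%, included it.

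The difference kept its size in the stricter sets. Among members with at least 5 rule genes, 7 of 20 and 15 of 37 members in the cKO and 1 of 31 and 1 of 46 in the WT had an Igfbp3 UMI, at 269 and 179 CPM in the cKO and 8.38 and 5.45 CPM in the WT. The log2 change was 4.98 with at least 4 rule genes (edgeR adjusted p = 0.00576) and 4.79 with at least 5 (edgeR adjusted p = 0.0193). Igfbp3 passed the threshold in all 15 alternative settings that gave it an adjusted p, with log2 changes of 4.16 to 5.91 and a highest adjusted p of 0.0329. Those settings included each library left out in turn. DESeq2 is not among them, as it gave Igfbp3 no adjusted p.

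Mural nuclei, the pericytes and smooth muscle cells next to the endothelium, gave few counts: 0 of 9 and 1 of 27 nuclei in the cKO and 0 of 38 and 3 of 46 in the WT had an Igfbp3 UMI. The counts of 0 allow shares of up to 33.3% in cKO replicate 1 and 7.89% in WT replicate 1. The change in endothelial nuclei exceeded that in all remaining nuclei by 3.83 on the log2 scale (SE 0.86, edgeR interaction test, adjusted p = 0.00189). That difference was as large in the stricter sets but no longer passed, at 3.93 (SE 1.12, edgeR adjusted p = 0.130) with at least 4 rule genes and 3.66 (SE 1.21, edgeR adjusted p = 0.442) with at least 5. It did not pass without WT replicate 1 either (4.41, SE 1.39, edgeR adjusted p = 0.239), nor against mural nuclei (4.87, SE 2.1, edgeR adjusted p = 0.955). In the remaining nuclei the levels were 7.92 and 8.93 CPM in the cKO and 5.18 and 2.52 CPM in the WT.

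**Figure D2:**
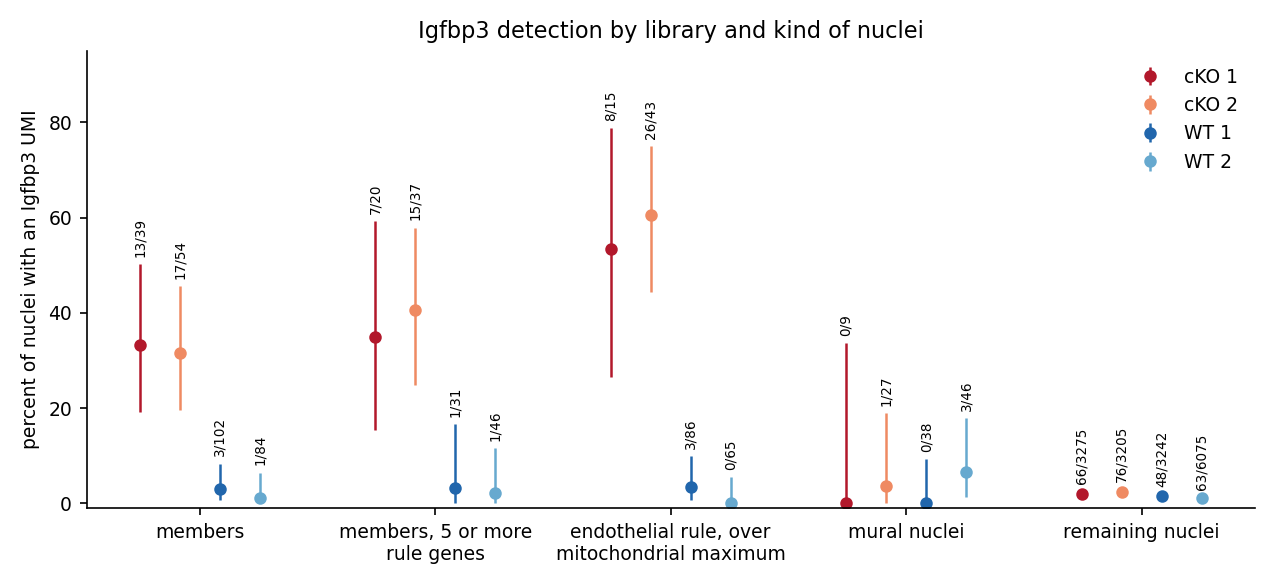
Percent of nuclei with an Igfbp3 UMI in each library for 5 kinds of nuclei, with exact 95% binomial intervals that cover counting error only and the counts written above each point. In members, in members with 5 or more rule genes and in endothelial-rule barcodes over the mitochondrial maximum, both cKO libraries lie above both WT libraries.

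Within the cKO, the 30 members with an Igfbp3 UMI were set beside the 63 without, as a description. At least 5 rule genes were found in 22 of 30 nuclei with Igfbp3 and in 35 of 63 without. At least 2 arterial genes were seen in 24 of 30 nuclei with it and 34 of 63 without, at least 2 capillary genes in 24 of 30 and 49 of 63, and at least 2 venous genes in 19 of 30 and 37 of 63. The depth of the nuclei with and without Igfbp3 was not compared, and these counts assign Igfbp3 to no one vessel type. Hif3a, described below, had a UMI in 10 of 30 nuclei with Igfbp3 and in 11 of 63 without. Other single genes were counted in the same 30 and 63 nuclei. Fkbp5 was found in 8 and 18, Cysltr1 in 5 and 10, Gm5127 in 6 and 10 and Vcam1 in 4 and 8. Mfsd2a was found in 8 and 15, Slc38a5 in 5 and 4 and Vwf in 15 and 24.

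Across all genes in members, 77 rose and 107 fell in the cKO of 5597 tested, that is 3.29% called (1.38% rose and 1.91% fell; edgeR, adjusted p under 0.05). Of the 77, 4 are rule genes (Pecam1, Tek, Slco1a4 and Mecom), which chose the members and support nothing here. All 77 genes that rose had a higher mean level in members than in remaining nuclei, and all 107 that fell had a lower one. Among the genes that fell were genes of neurons and myelin. Kctd16, a subunit partner of GABA-B receptors, had 24 and 19 UMIs in cKO members and 336 and 343 in WT members (log2 change -2.55, edgeR adjusted p = 0.0152). Tenm3, a neuronal adhesion gene, changed by -1.93 and Gria1, an AMPA receptor subunit gene, by -1.67 (edgeR adjusted p = 0.0212 and 0.0326). Gad1, the GABA-synthesising enzyme, had 3 UMIs in cKO members and 57 in WT members in all, a ratio of 0.147 (exact 95% interval 0.0294 to 0.451, counting error only), and Mbp, a myelin gene, was at 303 and 284 CPM in the cKO and 599 and 554 CPM in the WT. Without WT replicate 1 the calls of Gad1 (-2.93) and Mbp (-1.06) were lost. They were lost also without WT replicate 2 (-2.70 for Gad1 and -1.23 for Mbp) and without cKO replicate 2 (-2.01 for Gad1 and -1.05 for Mbp). The sums of neuronal markers given above were lower in both cKO libraries too, and their part in these calls was not tested. Both cKO libraries lay above both WT libraries for 30.9% of all 5597 genes and below them for 21.2%.

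The count of calls depended on the rule and on single libraries. With at least 4 rule genes, 2 of 3500 genes were called (0.0571%), and with at least 5 rule genes, 1 of 3023 (0.0331%), which was Igfbp3. The second call at 4 rule genes was Htr2c, a choroid plexus gene, which fell (log2 change -4.35). In that set the 6 choroid plexus markers together had 10 and 11 UMIs in the cKO and 202 and 351 in the WT. Over all members, most Htr2c UMIs came from 1 nucleus in each library. At an unadjusted p under 0.05 the edgeR counts were 1141 of 5597 (20.4%, with 9.08% higher and 11.3% lower in the cKO), 302 of 3500 (8.63%) and 249 of 3023 (8.24%). Of the 184 called genes, 159 were also tested with at least 4 rule genes: 158 kept their sign, 150 had a log2 change nearer 0 and 103 had an unadjusted p under 0.05. Without WT replicate 1, 75 genes were called, and without cKO replicate 1 or 2, 490 or 358. Of the 39 called genes named here, 18 passed without WT replicate 1, 37 of 38 without cKO replicate 1, 31 of 37 without cKO replicate 2 and 29 without WT replicate 2. Without TMM scaling, which removed a shift of 0.120 on the log2 scale, 63.6% of 151 calls were higher in the cKO, against 41.8% of the 184.

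**Figure D3:**
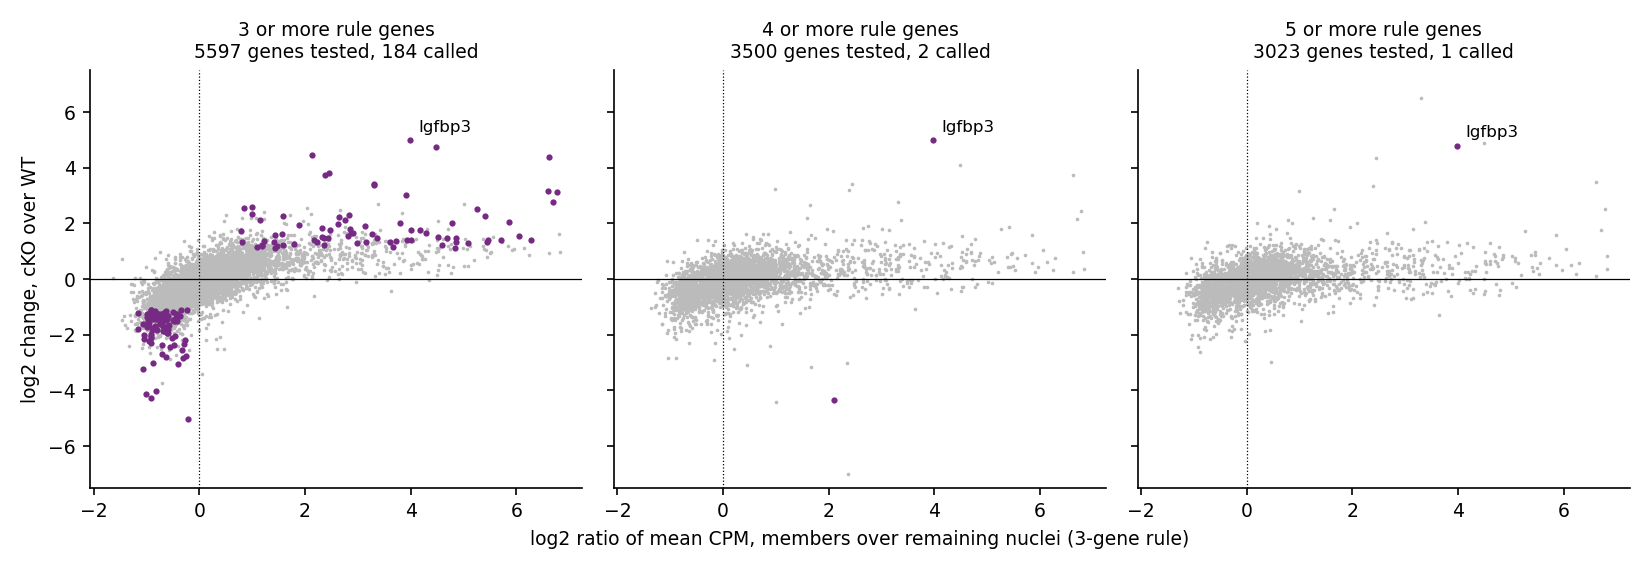
Log2 change of cKO over WT for each gene tested in members against the log2 ratio of mean CPM in members over remaining nuclei, for members with at least 3, 4 and 5 rule genes; purple points passed an adjusted p under 0.05. With at least 3 rule genes the 184 called genes split by their ratio, and with at least 5 only Igfbp3 was called.

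Bmx and Fbln5 of the arterial list rose, on few UMIs. Bmx, a tyrosine kinase of arterial endothelium, had 15 and 11 UMIs in cKO members and 2 and 1 in WT members (edgeR adjusted p = 0.0310). Its pooled ratio was 24.2 with an exact 95% interval of 7.41 to 125 for counting error only, and the UMIs came from 4 and 3 nuclei in the cKO and 1 and 1 in the WT. Fbln5, an elastic fibre protein, had 7 and 11 UMIs in the cKO and 3 and 1 in the WT (log2 change 3.42, edgeR adjusted p = 0.0350). The call of Fbln5 was lost without cKO replicate 1 (3.38), WT replicate 1 (4.34) or WT replicate 2 (2.70), and neither gene rests on many nuclei.

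Edn1, which encodes the vessel-constricting peptide endothelin-1, stood at 120 and 182 CPM in the cKO and 38.9 and 29.7 CPM in the WT (log2 change 2.06, edgeR adjusted p = 0.0350). Vegfc, a growth factor for lymphatic and venous endothelium, stood at 138 and 145 CPM in the cKO and 41.5 and 13.7 CPM in the WT (log2 change 2.26, edgeR adjusted p = 0.0370), from 9 and 9 nuclei in the cKO and 9 and 6 in the WT. The groups were apart for both. Edn1 lost its call without cKO replicate 2 (1.67) and Vegfc without WT replicate 2 (1.56). Eln, the gene of elastin, had 155 and 31 UMIs in the cKO and 17 and 4 in the WT (log2 change 4.73, edgeR adjusted p = 0.0332), but 90 of the UMIs of cKO replicate 1 lay in 1 nucleus. Fibroblast markers, which summed to 662 and 327 CPM in cKO members and 138 and 137 CPM in WT members, moved with Eln and Fbln5, and their part in the result was not tested. In members with at least 5 rule genes those markers overlapped, at 33.6 and 242 CPM in the cKO and 293 and 76.3 CPM in the WT.

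The list of 20 arterial genes had 10 tested, of which 4 rose (Bmx, Fbln5, Edn1 and Vegfc) and 0 fell, beside 1.38% and 1.91% over all genes. The median log2 change was 0.87, against -0.01 over all genes and 0.94 over the 24 tested of the 32 endothelial identity genes, all 24 of which were higher. In the set with at least 5 rule genes 8 were tested, 7 were higher, 0 passed, 4 had an unadjusted p under 0.05, and the median was 1.05 against 0.01. Among those 4, Edn1 stood at 185 and 257 CPM in the cKO and 92.2 and 59.97 CPM in the WT, and Vegfc at 168 and 195 CPM in the cKO and 67.02 and 21.8 CPM in the WT. Genes low in the WT could pass the filter on low counts through the cKO libraries alone, so such counts and medians describe the tested genes and not the whole list.

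Other zones of the vascular tree were described in the same way. Over all genes 49.2% were higher and 1.38% rose, while all 24 tested endothelial identity genes were higher and 4 rose. Of 16 venous genes 9 were tested and 2 rose, Vcam1 and Il1r1, with a median of 1.28, which was 0.59 with at least 5 rule genes. Vcam1, an adhesion molecule that holds leukocytes at the vessel wall, had 14 and 14 UMIs in cKO members and 2 and 3 in WT members (log2 change 3.8, edgeR adjusted p = 0.0274), in 3 and 9 nuclei in the cKO and 2 and 2 in the WT. Il1r1, the interleukin-1 receptor, stood at 496 and 177 CPM in the cKO and 41.5 and 59.3 CPM in the WT (log2 change 2.53, edgeR adjusted p = 0.0326). Its UMIs came from 9 of 39 and 6 of 54 nuclei in the cKO and 6 of 102 and 14 of 84 in the WT, shares that overlap, and 22 of the 54 UMIs of cKO replicate 1 lay in 1 nucleus. Vwf stood at 322 and 268 CPM in the cKO and 132 and 59.3 CPM in the WT and missed the threshold (edgeR adjusted p = 0.0526). Of the 12 capillary genes all 12 were tested, 12 were higher and 1 rose, Slc7a5, with a median of 0.74. In the strictest set 6 of the 12 were higher, 0 passed and the median was 0.10.

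By nuclei, at least 2 arterial genes were seen in 64.1% and 61.1% of cKO members and 47.1% and 61.9% of WT members. At least 2 capillary genes were seen in 71.8% and 83.3% in the cKO and 70.6% and 75.0% in the WT, and at least 2 venous genes in 53.8% and 64.8% in the cKO and 37.3% and 44.0% in the WT. At least 2 tip-cell genes were seen in 64.1% and 64.8% in the cKO and 46.1% and 63.1% in the WT. The venous shares were apart, and the arterial and capillary shares overlapped. The tip-cell shares were apart only with Igfbp3, itself on that list, counted. With Igfbp3 not counted, cKO replicate 1 had at least 2 tip-cell genes in 9 of 13 Igfbp3-positive members and 14 of 26 others. The counts were 12 of 17 and 20 of 37 in cKO replicate 2. They were 3 of 3 and 44 of 99 in WT replicate 1, and 1 of 1 and 52 of 83 in WT replicate 2. Over all members the groups then overlapped. With at least 5 rule genes the venous shares were 50.0% and 70.3% in the cKO and 58.1% and 54.3% in the WT, and the tip-cell counts 14 of 20 and 28 of 37 nuclei in the cKO and 20 of 31 and 33 of 46 in the WT, and both overlapped. In remaining nuclei, 40.1% and 43.7% in the cKO and 43.2% and 52.8% in the WT had at least 2 arterial genes, so that list is not specific to endothelium, whereas 15.4% and 17.8% in the cKO and 28.9% and 27.7% in the WT had at least 2 capillary genes.

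**Figure D4:**
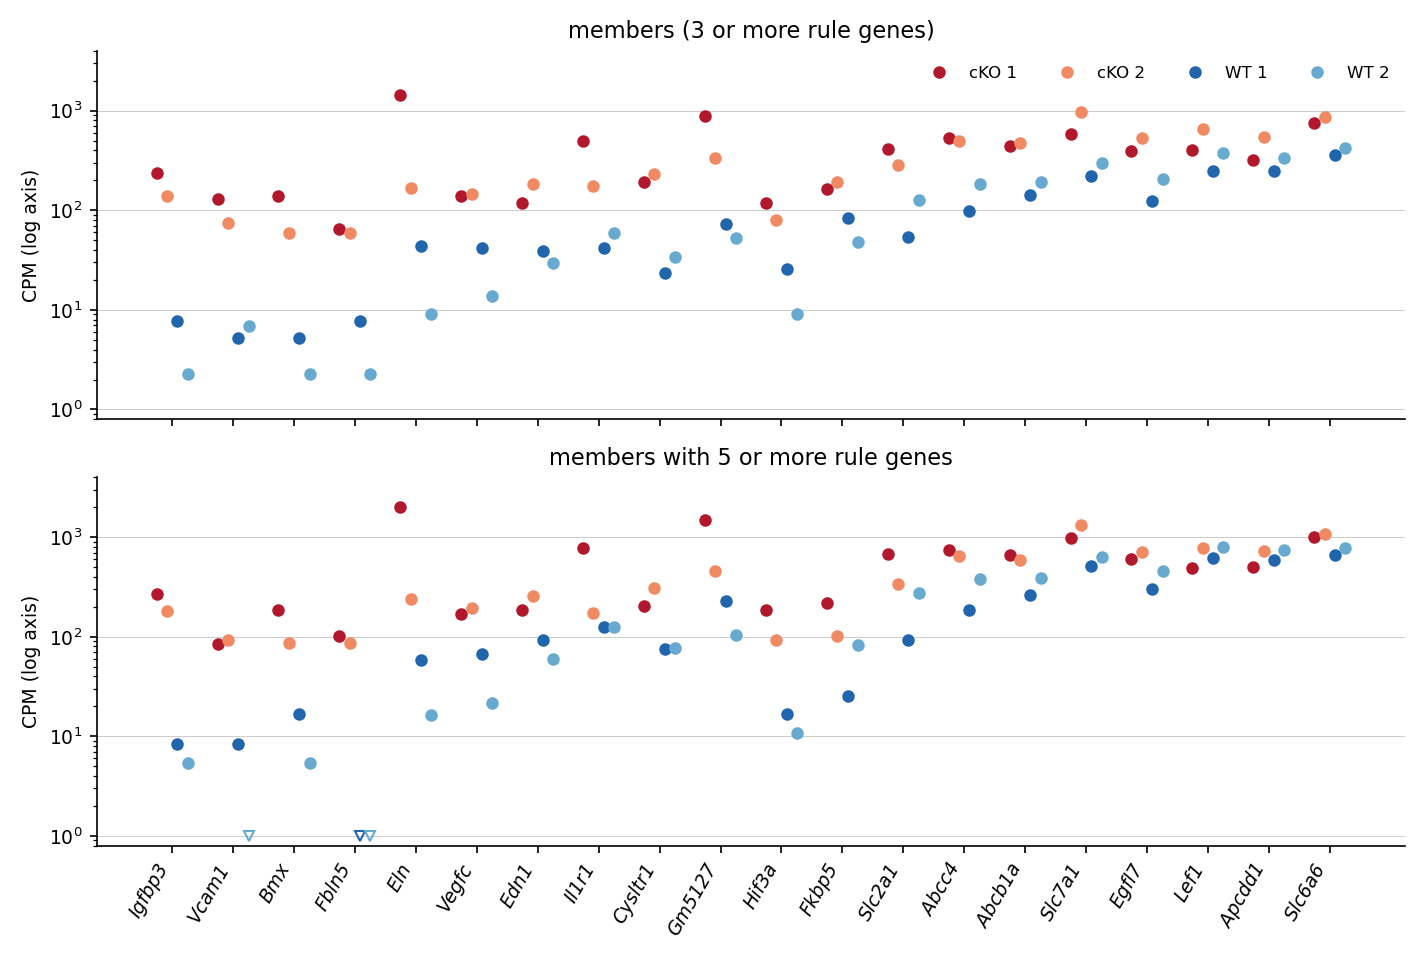
Level in CPM (log axis) of 20 named genes in each library, above for all members and below for members with 5 or more rule genes; open triangles at the bottom mark 0 UMIs. Igfbp3 stays at 269 and 179 CPM in the cKO and 8.38 and 5.45 CPM in the WT in the lower panel, while Lef1 and Apcdd1 overlap.

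The carriers that feed the brain had positive log2 changes throughout. Of 22 barrier transporter genes 16 were tested, all 16 were higher and 3 rose, with a median of 0.92, which is close to the 0.94 of the endothelial identity genes. Over all genes 49.2% were higher and 1.38% rose. Slc2a1, the glucose carrier GLUT1, had 45 and 53 UMIs in cKO members and 21 and 56 in WT members, or 414 and 284 CPM in the cKO and 54.5 and 128 CPM in the WT (log2 change 1.78, edgeR adjusted p = 0.0357). Slc7a1, a carrier of cationic amino acids, stood at 588 and 981 CPM in the cKO and 221 and 299 CPM in the WT (log2 change 1.5, edgeR adjusted p = 0.0350). Slc7a5, the carrier of large neutral amino acids, was at 469 and 531 CPM in the cKO and 171 and 221 CPM in the WT (log2 change 1.24, edgeR adjusted p = 0.0361). All 3 lost their call without WT replicate 1, where the log2 changes were 1.28 for Slc2a1, 1.27 for Slc7a1 and 1.04 for Slc7a5. Slc7a5 lost it also without WT replicate 2 (1.35).

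The transporter median was 0.29 with at least 5 rule genes, with 12 of 16 higher and 0 passing. Slc2a1 then stood at 672 and 335 CPM in the cKO and 92.2 and 273 CPM in the WT (log2 change 1.31, edgeR unadjusted p = 0.0148), and both cKO libraries were above both WT libraries. In endothelial-rule barcodes over the mitochondrial maximum, which were not members, Slc2a1 was at 341 and 480 CPM in the cKO and 367 and 257 CPM in the WT, and the groups overlapped. Slco1c1, the thyroid hormone carrier, stood at 1020.4 and 1206 CPM in cKO members and 477 and 618 CPM in WT members (edgeR adjusted p = 0.0910). Slc6a6, the taurine carrier, stood at 745 and 868 CPM in the cKO and 358 and 424 CPM in the WT (edgeR adjusted p = 0.0741). Mfsd2a, a lipid carrier that restrains transcytosis, stood at 36.8 and 172 CPM in the cKO and 54.5 and 73.0 CPM in the WT and overlapped.

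Efflux pumps held 4 of the calls. Of 9 genes 8 were tested, 5 were higher and 4 rose, with a median of 0.75; with at least 5 rule genes 6 were tested, all 6 were higher, 3 had an unadjusted p under 0.05, 0 passed and the median was 0.69. The 2 medians cover different genes, as fewer were tested under the stricter rule. Beside these, 1.38% of all genes rose, and 4 of the 24 tested endothelial identity genes did, with a median of 0.94. Abcc4, which exports organic anions, stood at 533 and 499 CPM in the cKO and 98.6 and 182 CPM in the WT (log2 change 1.75, edgeR adjusted p = 0.0326), and with at least 5 rule genes at 739 and 647 CPM in the cKO and 184 and 376 CPM in the WT (log2 change 1.23, edgeR unadjusted p = 0.00620). Abcb1a, a form of P-glycoprotein, stood at 441 and 477 CPM in the cKO and 143 and 194 CPM in the WT (log2 change 1.33, edgeR adjusted p = 0.0350). Abcg2 and Abcc6 rose by 1.16 and 1.40 on the log2 scale (edgeR adjusted p = 0.0492 and 0.0480), and with at least 5 rule genes Abcg2 stood at 487 and 382 CPM in the cKO and 260 and 349 CPM in the WT (log2 change 0.45, edgeR unadjusted p = 0.220). Without WT replicate 1 these 4 pumps did not pass, at 1.35 for Abcc4, 1.10 for Abcb1a, 0.90 for Abcg2 and 1.35 for Abcc6. Abcg2 and Abcc6 lost the call also without WT replicate 2 (1.35 and 1.33) or cKO replicate 2 (1.13 and 1.26).

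Junction, transcytosis and lipid genes are set beside all genes, of which 49.2% were higher and 1.38% rose. All 24 tested endothelial identity genes were higher, with a median of 0.94. Of 17 junction genes 14 were tested and 12 were higher, with a median of 0.78, which was 0.43 with at least 5 rule genes. Only Pard3, a polarity protein that helps place junctions, rose, at 616 and 579 CPM in the cKO and 234 and 235 CPM in the WT (log2 change 1.23, edgeR adjusted p = 0.0350). The call of Pard3 was lost without WT replicate 1 (1.2) or WT replicate 2 (1.15). Tjp1, the scaffold ZO-1, was at 1774 and 1523 CPM in the cKO and 786 and 972 CPM in the WT and did not pass (log2 change 0.79, edgeR adjusted p = 0.137). Of 18 genes of transcytosis and lipid handling 13 were tested and 12 were higher, with a median of 0.73, and 1 rose. That gene, the lipid-binding apolipoprotein Apod, had 65 and 18 UMIs in the cKO and 9 and 9 in the WT, and 51 of those in cKO replicate 1 lay in 1 nucleus.

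Wnt signalling, the pathway that induces the barrier, gave no call. Of 25 genes 19 were tested, 17 were higher and 0 rose, with a median of 0.67 that went to -0.03 with at least 5 rule genes. Beside these, 49.2% of all genes were higher and 1.38% rose. Lef1, a transcription factor that Wnt signals act through, stood at 404 and 654 CPM in cKO members and 249 and 374 CPM in WT members, and at 487 and 780 CPM in the cKO and 612 and 801 CPM in the WT with at least 5 rule genes. Apcdd1, a Wnt inhibitor induced by the pathway, stood at 322 and 547 CPM in the cKO and 249 and 335 CPM in the WT. Its log2 change was 0.49 in all members and -0.13 in the stricter set. Zfp366 stood at 368 and 541 CPM in the cKO and 138 and 292 CPM in the WT (edgeR adjusted p = 0.136).

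Other vessel signalling lists held few calls. Over all genes 49.2% were higher and 1.38% rose. Of 19 VEGF and angiopoietin genes 15 were tested, 11 were higher and 1 rose (Vegfc), with a median of 0.38, and 0.03 with at least 5 rule genes. Of 17 Notch genes 8 were tested, 7 were higher and 0 passed, with a median of 0.53, and 0.04 in the stricter set. Of 18 flow-response genes 14 were tested, 11 were higher and 0 passed (median 0.47). Of 20 TGF-beta and BMP genes 17 were tested, 15 were higher and 2 rose, with a median of 0.72, and 0.32 with at least 5 rule genes. Eng, the co-receptor endoglin, stood at 460 and 450 CPM in the cKO and 140 and 201 CPM in the WT (log2 change 1.29, edgeR adjusted p = 0.0357). Bmp6, a secreted ligand, changed by 1.74 (edgeR adjusted p = 0.0469). The calls of Eng and Bmp6 were lost without WT replicate 1, at 1.03 and 1.25.

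**Figure D5:**
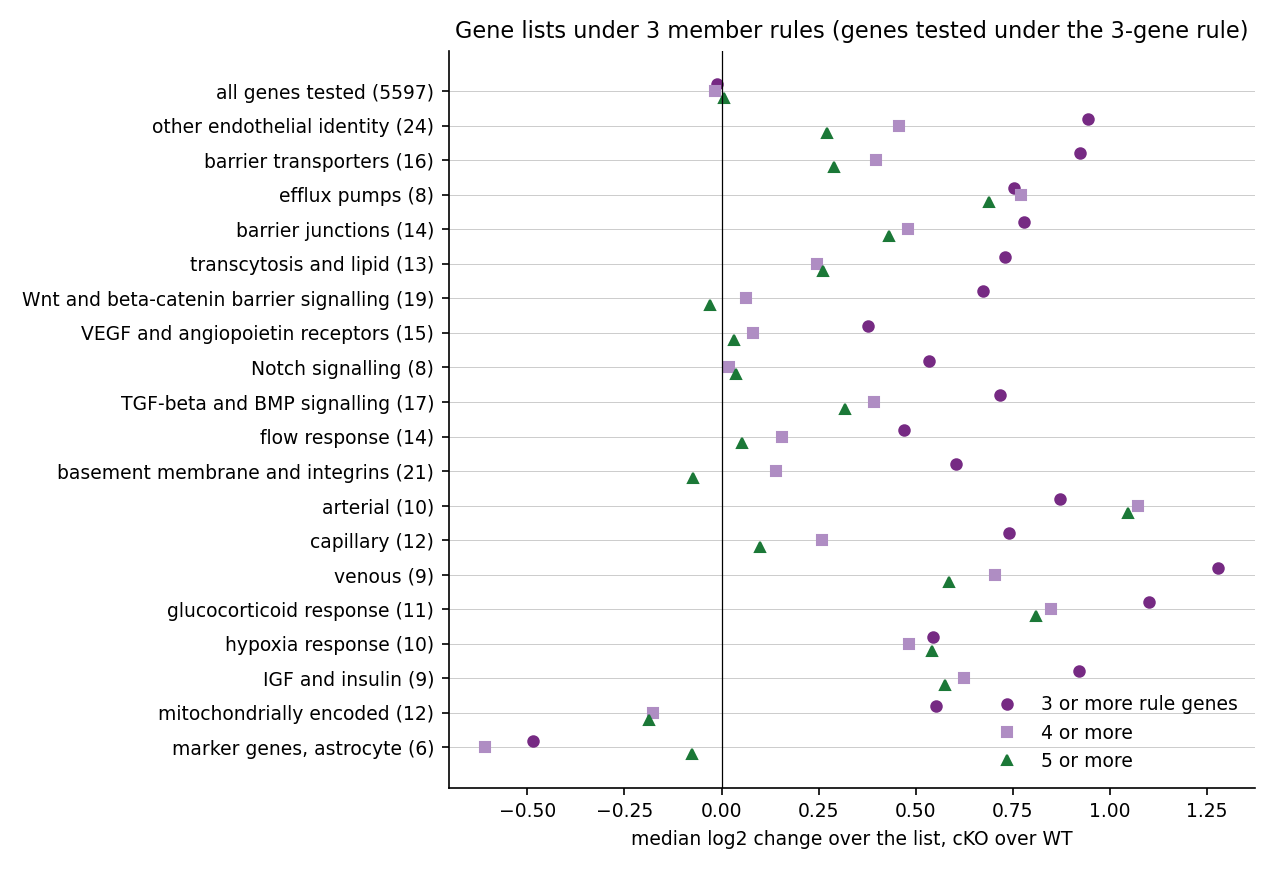
Median log2 change of cKO over WT for gene lists, for members with at least 3, 4 and 5 rule genes, beside all genes tested; the number after each name counts the genes tested with at least 3 rule genes. The Wnt median is 0.67, 0.06 and -0.03, the hypoxia median 0.54, 0.48 and 0.54 and the arterial median 0.87, 1.07 and 1.05, and the genes tested differ between the rules.

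Matrix, adhesion and guidance genes were mixed. Over all genes 49.2% were higher, 1.38% rose and 1.91% fell. Of 29 genes of basement membrane and integrins 21 were tested, 19 were higher and 1 rose, Fn1, the gene of fibronectin, at 414 and 536 CPM in the cKO and 132 and 214 CPM in the WT (log2 change 1.35, edgeR adjusted p = 0.0375), with a list median of 0.60 and of -0.07 with at least 5 rule genes. Of 17 leukocyte adhesion genes 7 were tested, 3 were higher and 2 rose, again Vcam1 and Il1r1. Of 28 guidance genes 22 were tested, 11 were higher, 1 rose and 2 fell. Sema3c, a secreted semaphorin, stood at 349 and 402 CPM in the cKO and 106 and 144 CPM in the WT (log2 change 1.48, edgeR adjusted p = 0.0345), and the axon guidance receptors Dcc and Robo1 changed by -1.24 and -1.38 (edgeR adjusted p = 0.0372 and 0.0480). Dcc stood at 436 and 413 CPM in the cKO and 486 and 305 CPM in the WT with at least 5 rule genes, where the groups overlapped. Without WT replicate 1 the calls of Fn1 (1.01), Sema3c (1.25), Dcc (-1.18) and Robo1 (-1.23) were lost. Of 19 tip-cell and sprouting genes 9 were tested and 1 rose, Igfbp3, and of 13 pericyte-recruiting signals 7 were tested and 1 rose, Edn1.

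For 16 genes of IGF and insulin signalling the median log2 change was 0.92, and 0.58 with at least 5 rule genes. In all members 9 were tested, 7 were higher and 2 rose, beside 1.38% over all genes. The 2 were Igfbp3 and Igfbp7, a secreted vessel protein at 570 and 466 CPM in the cKO and 143 and 212 CPM in the WT (log2 change 1.41, edgeR adjusted p = 0.0350). Igfbp7 lost its call without WT replicate 1 (1.13). Igf1r, the IGF receptor, stood at 2804 and 3039.7 CPM in the cKO and 900.5 and 1639.9 CPM in the WT and did not pass (edgeR adjusted p = 0.0987).

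Glucocorticoid response genes were followed because many of them are regulated in the endothelium by circulating steroid. Of 26 genes 11 were tested, 9 were higher and 1 rose, with a median of 1.10, and 0.81 with at least 5 rule genes. Beside these, 49.2% of all genes were higher and 1.38% rose. Hif3a, of the hypoxia-inducible factor family, had a UMI in 7 of 39 and 14 of 54 cKO members and 4 of 102 and 4 of 84 WT members, or 120 and 80.4 CPM in the cKO and 25.9 and 9.12 CPM in the WT (log2 change 2.35, edgeR adjusted p = 0.0469). Under the strictest rule it stood at 185 and 93.6 CPM in the cKO and 16.8 and 10.9 CPM in the WT (log2 change 3.16, edgeR unadjusted p = 0.00200), and the groups did not overlap. In all members the call was lost without WT replicate 2 (1.69). It was also higher in the remaining nuclei, at 42.0 and 34.9 CPM in the cKO and 24.8 and 16.8 CPM in the WT, and the difference between the changes did not pass (1.40, edgeR interaction test, adjusted p = 0.213).

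Fkbp5, an immunophilin gene that glucocorticoids induce, stood at 165 and 193 CPM in cKO members and 83.04 and 47.9 CPM in WT members (log2 change 1.36, edgeR adjusted p = 0.0727). In remaining nuclei it stood at 94.4 and 92.6 CPM in the cKO and 40.4 and 44.7 CPM in the WT, and the changes differed by 0.13 (edgeR interaction test, adjusted p = 0.951). Zbtb16, another gene that glucocorticoids induce, stood at 184 and 316 CPM in cKO members and 67.5 and 119 CPM in WT members (edgeR adjusted p = 0.0673). Hif3a, Fkbp5 and Zbtb16 were each higher in both cKO libraries than in both WT libraries, as were 30.9% of the 5597 genes tested. Of the 26 list genes, tested or not, 16 were so in members and 0 were lower, beside 25 and 0 of the 32 endothelial identity genes. In the remaining nuclei 13 of the 26 were higher in this way and 3 were lower, beside 2 and 14 of the 32 identity genes. The share over all genes in the remaining nuclei was not computed. Of 18 clock genes 9 were tested, 4 were higher and 0 passed. Of 21 hypoxia genes 10 were tested, 8 were higher and 3 rose, beside 1.38% over all genes. The 3 were Hif3a, Slc2a1 and Epas1, a hypoxia-inducible factor of endothelium. Epas1 stood at 349 and 477 CPM in the cKO and 122 and 185 CPM in the WT (log2 change 1.33, edgeR adjusted p = 0.0390). The call of Epas1 was lost without WT replicate 1 (1.03) or cKO replicate 2 (1.06).

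Cysltr1, a receptor for cysteinyl leukotrienes, stood at 193 and 231 CPM in the cKO and 23.4 and 34.2 CPM in the WT (log2 change 2.75, edgeR adjusted p = 0.0152). Gm5127 stood at 883 and 338 CPM in the cKO and 72.7 and 52.5 CPM in the WT (log2 change 3.12, edgeR adjusted p = 0.0152). The genes overlap on opposite strands of the X chromosome (GRCm38, Cysltr1 at X:106574346-106603679 on the minus strand and Gm5127 at X:106583186-106710557 on the plus strand). Whether the counting used strand is not given in the sources used here, so the pair is uncertain as separate genes. Their UMIs came from 6 and 9 nuclei for Cysltr1 in the cKO and 4 and 5 in the WT.

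Egfl7 carries in its introns the endothelial microRNA miR-126, whose seed (bases 2 to 8, in capitals) is what Argonaute proteins such as AGO2 hold out to target RNAs. The mature sequence is shown because the host transcript is the one member of the miRNA list that passed (RefSeq, GRCm38.p6, plus strand, 2:26591402-26591423).
mmu-miR-126a-3p: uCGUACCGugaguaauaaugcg
Egfl7 itself (GRCm38, 2:26580014-26593120, plus strand) stood at 395 and 536 CPM in the cKO and 125 and 205 CPM in the WT (log2 change 1.40, edgeR adjusted p = 0.0372). Under the strictest rule it stood at 604 and 717 CPM in the cKO and 302 and 458 CPM in the WT (log2 change 0.76, edgeR unadjusted p = 0.0480). The call of Egfl7 in all members was lost without WT replicate 1 (1.05). The nuclear transcript does not measure the mature miRNA. Of 21 genes of the miRNA pathway and miRNA hosts 16 were tested, 10 were higher and 1 rose, with a median of 0.07. Beside these, 49.2% of all genes were higher and 1.38% rose.

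The targeted gene was not aimed at in these cells. Ago2 (GRCm38, 15:73095844-73184935, minus strand) had 13 and 13 UMIs in cKO members and 35 and 52 in WT members, or 120 and 69.7 CPM in the cKO and 90.8 and 119 CPM in the WT, and the groups overlapped (log2 change -0.33, SE 0.39, edgeR adjusted p = 0.696). In remaining nuclei it stood at 88.8 and 92.1 CPM in the cKO and 73.2 and 81.2 CPM in the WT. A 3′ count of a floxed gene need not drop when an upstream part is removed, so these values do not check the genotype labels. Slc17a6 had 1 and 5 UMIs in cKO members and 20 and 10 in WT members. A feature named CRE had 0 UMIs in all 4 libraries, which allows up to 0.277 and 0.262 CPM in the cKO and 0.229 and 0.102 CPM in the WT.

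Whether the change in endothelial nuclei differed from that in the remaining nuclei was tested by an interaction over 8 sums with library as a block. Of 16525 genes 448 differed (2.71%), 110 with a higher change in members (0.666%) and 338 with a lower one (2.05%). Of the 110, 8 are rule genes, whose levels chose the members, and they are no finding. Without WT replicate 1 the count was 31, and without cKO replicate 1 or 2 it was 218 or 170. With at least 4 rule genes 35 differed and with at least 5 rule genes 4 did. Those 4 were Eln at 3.87, Apod at 2.73, C130073E24Rik at -3.08 and Otos. Otos had 48 and 0 UMIs in cKO members with at least 5 rule genes and 0 and 0 in such WT members, so its call rests on 1 library and its fitted value is not given. Eln and Apod in cKO replicate 1 rest largely on 1 nucleus each, as given above. Against mural nuclei 0 of 4218 genes differed by edgeR, with 200 at an unadjusted p under 0.05, from 9 and 27 mural nuclei in the cKO and 38 and 46 in the WT.

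Mitochondrially encoded RNA and choroid plexus RNA also varied. The 13 mitochondrial genes summed to 12291 and 18196 CPM in cKO members and 9570.3 and 10273 CPM in WT members, and to 10778 and 23720.2 CPM in the cKO and 19219 and 20844 CPM in the WT with at least 5 rule genes, where the groups overlapped. The choroid plexus genes Htr2c and Ttr came mostly from single nuclei: 342 of 353 and 59 of 66 Htr2c UMIs in the cKO, and 167 of 260 and 312 of 601 in the WT, lay in 1 nucleus of each library. In the strictest set the 6 choroid plexus markers summed to 50.4 and 78.0 CPM in the cKO and 41.9 and 76.3 CPM in the WT, so the stricter set did not hold those nuclei.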

How the data were processed

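The deposited values are whole-number UMI counts for every gene and barcode of a library. Cell Ranger 4.0.0 stands in the file headers, and the submitters' processing notes add Seurat 3.2.3 and GRCm38; the intron setting, annotation release and use of strand are not given in the sources used here. Of 17802 barcodes, 16076 passed a minimum of 500 UMIs and a mitochondrial maximum of 5%. No barcode was removed as a doublet in the values reported. Scrublet in scanpy 1.11.5 marked the highest scores at 0.8% per 1000 barcodes for an alternative.

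UMI counts were summed per library over members and tested with edgeR 4.0.16 in R 4.3.3 (filterByExpr, TMM, quasi-likelihood test, two-sided, Benjamini-Hochberg over all genes tested, threshold 0.05), using the 4 libraries. CPM use all UMIs of the summed nuclei. An interaction fit set members against remaining nuclei of the same libraries. Shares were tested by an exact permutation test over 4 libraries, and intervals are exact Clopper-Pearson at 95%. The steps were tested on simulated counts with known changes. Gene positions are from GENCODE (GRCm38).

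The members, the gene lists and the tests were chosen with earlier results of these data known. Genes named are the 15 genes of the rule, up to 30 with the smallest p among those past the threshold, 10 each way among the rest, the top 20 by ratio over remaining nuclei, those of each list with the 4 highest levels or an unadjusted p under 0.05, up to 10 of the interaction, Ago2 and Slc17a6. The rule with at least 5 rule genes, the interaction under stricter rules and the crossed block were added after seeing the data. Alternatives were DESeq2 1.42.0, no TMM, no filter, each library left out, a replicate block, and other rules for members.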

Additional observations from a re-analysis of the deposited data

Results flagged for a closer look

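Genes drew attention where the test of the difference itself, edgeR's interaction of genotype with kind of nuclei, had an adjusted p under 0.05; the values are the log2 change of cKO over WT in members minus that in remaining nuclei. In all, 448 genes passed, and 31 did without WT replicate 1. With at least 5 rule genes, only Eln, Apod and C130073E24Rik of the genes listed below passed, and all others lost the call. The UMIs of Eln and Apod in cKO replicate 1 lay largely in 1 nucleus each, and those of Il1r1 in part, as given above. In members, summed neuronal markers were lower and summed endothelial identity genes higher in both cKO libraries. In remaining nuclei the identity genes summed to 232 and 261 CPM in the cKO and 477 and 265 CPM in the WT. Each difference holds the changes in both kinds of nuclei, and the part of these sums in it was not tested. Adgrl4, Apcdd1, Slc6a6, Slco1c1, Vwf and Zfp366 were not called in members alone.

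Of secreted and vessel-wall genes, Igfbp3 differed by 3.83 (a call lost with at least 4 or 5 rule genes and without WT replicate 1), Eln by 3.77, Fbln5 by 3.52, Vegfc by 1.96, Apod by 3.14, Igfbp7 by 1.71, Fn1 by 1.21, Bmp6 by 1.52, Sema3c by 1.28, Egfl7 by 2.30 and Vwf by 1.80. Of adhesion molecules and receptors, Vcam1 differed by 3.84, Il1r1 by 2.73, Cysltr1 by 2.75, Eng by 2.11 and Adgrl4 by 1.71. Gm5127, which overlaps Cysltr1, differed by 2.42.

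Of carriers and pumps, Slc2a1 differed by 2.19, Slco2a1 by 2.02, Abcb1a by 1.83, Abcc4 by 1.80, Slc7a1 by 1.58, Slco1c1 by 1.24, Slc7a5 by 1.17 and Slc6a6 by 0.992. Other endothelial genes were Zfp366 at 2.21, Clic4 at 1.83, Epas1 at 1.59, Fbxl7 at 1.51 and Apcdd1 at 1.29. Of genes of neurons, Gad1 differed by -3.17, Kctd16 by -2.27, Tenm3 by -2.25, Gria1 by -1.89, Robo1 by -1.45 and Dcc by -1.37. C130073E24Rik, a long non-coding RNA gene whose cell type is not shown here, differed by -3.44.

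Barcodes over the mitochondrial maximum were not members, and those that met the endothelial rule were looked at apart. Igfbp3 had a UMI in 53.3% (8 of 15) and 60.5% (26 of 43) of them in the cKO, above 3 of 86 and 0 of 65 in the WT, where the count of 0 allows a share of up to 4.62%. Their median depths were 3776 and 2982 UMIs in the cKO and 4915 and 4300 in the WT. Among other barcodes over that maximum, 4.92% and 11.2% in the cKO and 1.42% and 1.52% in the WT had an Igfbp3 UMI.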

How the results depend on the processing

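The count of 184 called genes went to 467 without a filter on low counts, 425 without the highest doublet scores, 69 without nuclei of mixed content, 29 with no mural gene allowed, 5 at a minimum of 1000 UMIs, 2 with at least 4 rule genes and 1 with at least 5, and to between 75 and 490 with 1 library left out. DESeq2 gave 169, no TMM scaling 151 and no mitochondrial maximum 128. The replicate block gave 7 calls, but the numbers pair nothing in the labels: same-numbered members' sums correlated at -0.0395 in their deviations, and crossed numbers gave 408 calls under the block. The 448 genes of the interaction became 35 with at least 4 rule genes, 4 with at least 5 and 0 against mural nuclei, and between 31 and 322 with 1 library left out. The share difference was 0.0921 points with at least 4 rule genes, 0.0325 with at least 5 and 0.125 when thinned, and between -1.63 and 0.0530 with 1 library left out.

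Of 820 values of 54 named genes under alternatives, 518 kept their direction and side of the threshold, 244 lost and 40 gained the call, and 18 changed sign. With 1 library left out, Htr2c ranged from -1.64 to 1.54, Mfsd2a from -0.917 to 1.30 and Ago2 from -0.704 to 0.0613. With at least 4 rule genes Htr2c was at -4.35, Ttr at -3.01, Lef1 at -0.0111 and Apcdd1 at -0.00828. With at least 5, Mfsd2a was at -0.0485, Lef1 at -0.162, Apcdd1 at -0.131 and Dcc at 0.0780. With no mural gene Htr2c was at -1.79 and Ttr at -0.0318. Without mixed nuclei Apcdd1 was at -0.134 and Ago2 at 0.00689, and with no mitochondrial maximum Mfsd2a was at -0.00318, Apcdd1 at -0.00301 and Ago2 at 0.00695. The cause was not tested. Summed UMIs of 108779 to 438435 per library limit what members can show for genes of a few UMIs.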
